A study of Mus musculus with 12 samples.

Results

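The genes described here are those of hepatic glucose production: Pcx, Pck1, Fbp1 and G6pc, which encode the enzymes of the irreversible steps of gluconeogenesis, and Slc2a2, which encodes the liver glucose transporter GLUT2. Every probe set whose only gene symbol in the platform annotation was 1 of these 5 names was taken. That gave 6 of the 12422 probe sets tested, 2 of them for Pcx and 1 for each other gene, and all 6 had a value on every array. The manufacturer's control sets for Pcx, 4 in number, were kept apart as context.

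The data come from 1 adult mouse of the NMR-1 strain, whose frozen liver, cortex and cerebellum each gave total RNA for MG_U74Av2 arrays, an Affymetrix oligonucleotide array of mouse transcripts. In each tissue, 1 array was made from 5 µg of RNA by the standard Affymetrix protocol with 1 linear amplification, called 1X here. A further 3 arrays were technical replicates made from 1 ng of RNA with 3 linear amplifications and the RiboAmp HS kit, called 3X here, so that 12 arrays fell into 6 groups. The effects of the input, the kit and the extra amplifications cannot be told apart. Neither age beyond "adult" nor sex or feeding state is given in the sources used here. All signals are log2 values from RMA, a method that corrects the background, brings the arrays to a common distribution and summarises the probes of a set, and the array medians were 3.45 to 3.48. RMA gives no detection call, so a dim signal was not told from background and a ratio of signals is no measured ratio of RNA.

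Gluconeogenesis makes glucose from lactate, glycerol and amino acids, chiefly in the liver during fasting and also in the proximal tubule of the kidney and, to a smaller extent, the small intestine. Pyruvate carboxylase turns pyruvate into oxaloacetate, the cytosolic phosphoenolpyruvate carboxykinase Pck1 turns that into phosphoenolpyruvate, fructose-1,6-bisphosphatase removes a phosphate further up the path, and the catalytic subunit of glucose-6-phosphatase releases free glucose in the endoplasmic reticulum. Brain tissue takes up and burns glucose and does not release it to the blood, although pyruvate carboxylase also refills the citric acid cycle in astrocytes. Glucagon, through cyclic AMP, and glucocorticoids raise transcription of Pck1 and G6pc, and insulin lowers it.

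In the RefSeq gene table of assembly GRCm38.p6, Pck1 lies at chr2:173153073-173159274, Slc2a2 at chr3:28697903-28728361, G6pc at chr11:101367716-101377903, Fbp1 at chr13:62864753-62888298 and Pcx at chr19:4510472-4621752. The position of the array probes within these genes was not used here. The 250 bases before the transcription start given for 4 of the genes in the RefSeq promoter table are shown because the hormone and liver factors named above act through such upstream sequence. The start used for Fbp1 lies inside the gene span above, so that 16 bases of its window fall within that span. Capitals mark the motifs found, written 5′ to 3′ on the strand of the gene.

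Pck1, chr2:173152823-173153072, plus strand: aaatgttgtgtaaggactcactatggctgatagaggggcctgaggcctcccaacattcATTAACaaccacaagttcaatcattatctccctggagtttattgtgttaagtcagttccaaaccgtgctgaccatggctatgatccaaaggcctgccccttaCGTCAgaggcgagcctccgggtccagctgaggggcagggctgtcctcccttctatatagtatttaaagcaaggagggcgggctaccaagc
G6pc, chr11:101367466-101367715, plus strand: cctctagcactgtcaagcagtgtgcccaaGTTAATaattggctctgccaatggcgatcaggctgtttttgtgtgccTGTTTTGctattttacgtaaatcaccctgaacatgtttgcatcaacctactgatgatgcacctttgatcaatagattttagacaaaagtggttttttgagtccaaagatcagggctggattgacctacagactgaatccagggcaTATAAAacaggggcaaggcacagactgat
Fbp1, chr13:62888283-62888532, minus strand: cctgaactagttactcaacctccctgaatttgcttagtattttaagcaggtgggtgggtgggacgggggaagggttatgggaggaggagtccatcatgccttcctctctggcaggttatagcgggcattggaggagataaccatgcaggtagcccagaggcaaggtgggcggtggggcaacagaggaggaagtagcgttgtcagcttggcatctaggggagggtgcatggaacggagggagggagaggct
Slc2a2, chr3:28697653-28697902, plus strand: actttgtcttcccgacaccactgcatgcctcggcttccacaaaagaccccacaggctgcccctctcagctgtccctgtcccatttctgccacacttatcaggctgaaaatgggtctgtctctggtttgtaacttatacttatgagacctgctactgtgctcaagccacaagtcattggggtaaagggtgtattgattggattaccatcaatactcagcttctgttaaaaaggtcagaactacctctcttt

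The upstream sequences of Pck1 and G6pc held matches to motifs of the regulators searched, and those of the other genes held none. Pck1 carried TGACG, the core of the cyclic AMP response element,, on the opposite strand, at positions -90 to -86 from the start, a pentamer found in 17.8% of 32851 RefSeq promoter windows of the same length. It also carried GTTAAT, part of the site of the liver factor HNF1, on the opposite strand at -192 to -187, which 6.43% of the windows held. G6pc carried the TATA box TATAAA at -29 to -24, held by 12.4% of windows. It had GTTAAT at -221 to -216 and TGTTTTG, the core of the insulin response sequence bound by forkhead factors, at -174 to -168, a heptamer in 5.56% of windows. The full cyclic AMP response element TGACGTCA (in 1.55% of windows), the forkhead site TGTTTAC (3.17%), the HNF4 site CAAAGTCCA (0.384%), the C/EBP site TTGCGCAA (0.164%) and the glucocorticoid receptor hexamer TGTTCT (16.1%) had no match upstream of any of the 5 genes. Both strands were searched, and both starts of Pcx. TGACG lies within TGACGTCA, so these motifs overlap by construction. A match is a description of these letters only.

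On the 3X arrays, liver signals were above both brain regions for 5 of the 6 probe sets, with no overlap of the 3 liver and 6 brain arrays. The comparison of liver with cortex called 5 of 6 probe sets, all higher in liver, at a limma adjusted p under 0.05. Of all probe sets, 16.8% were called in either direction, 6.64% higher and 10.1% lower in liver. The comparison with cerebellum called 4 of 6, all higher in liver, against 16.6% in either direction, 6.38% higher and 10.2% lower. The median difference of the 6 was 0.94 against cortex and 0.78 against cerebellum on the log2 scale, beside 0.01 and 0.02 over all probe sets. Every liver array lay above every cortex array for 14.0% of all probe sets, and above every cerebellum array for 14.1%. Both comparisons use the same liver arrays. Since the arrays come from the same animal, all p-values measure only the technical spread between arrays. In whole tissue, fewer cells of a type and less RNA per cell cannot be told apart.

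Fructose-1,6-bisphosphatase 1 (Fbp1, 96918_at) had the largest tissue differences of the 6. Its liver signal was 11.11 at 1X and 10.74, 10.37 and 11.20 at 3X. In cortex it was 4.03 at 1X and 4.64, 4.33 and 4.45 at 3X, and in cerebellum 6.20 at 1X and 6.79, 6.90 and 7.50 at 3X. Liver was highest, cerebellum intermediate and cortex lowest with both procedures, and no array of a tissue overlapped another tissue. At 3X, with 3 arrays a tissue, the excess of liver over cortex was 6.30 ± 0.22 (SE; limma adjusted p = 1.3e-08). It exceeded cerebellum by 3.70 ± 0.22, a 13.0-fold ratio of signals (adjusted p = 1.03e-06).

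Glucose-6-phosphatase (G6pc, 103333_at), the last enzyme of the path, had the same order of tissues over a narrower range. The liver array read 9.28 at 1X, and the 3X arrays read 8.21, 8.29 and 8.09. The cortex signals were 6.14 at 1X and 6.74, 6.76 and 6.78 at 3X, and the cerebellum signals 6.54 at 1X and 7.24, 7.04 and 6.89 at 3X. All liver arrays lay above all brain arrays. On the brain arrays the signal still lay above 87.3% to 94.6% of probe sets, and how far it follows G6pc there was not tested. The 3X liver mean of 8.19 ± 0.10 (SD, n = 3) exceeded cortex by 1.43 ± 0.10 (SE), or 2.70-fold (limma adjusted p = 3.08e-06). It exceeded cerebellum by 1.14 ± 0.10, or 2.20-fold (limma adjusted p = 2.09e-05).

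Slc2a2 (103357_at), whose product exports the glucose that the path makes, read 6.67 in liver at 1X and 4.09, 4.18 and 5.51 at 3X. Its brain signals were 2.90 in cortex and 3.01 in cerebellum at 1X, 3.01, 2.95 and 2.97 in 3X cortex, and 3.11, 3.01 and 3.39 in 3X cerebellum. Liver was above the brain on every array, but its 3X replicates had an SD of 0.80, and replicate 3 stood apart from the other two. The differences at 3X were 1.62 ± 0.30 (SE) against cortex (limma adjusted p = 0.00382) and 1.42 ± 0.30 against cerebellum (adjusted p = 0.00851). Without liver replicate 3 they were 1.16 and 0.96, and both remained called by limma.

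Phosphoenolpyruvate carboxykinase (Pck1, 160481_at), often taken as the rate-limiting enzyme of the path, stood well above the brain only on the 1X liver array. It read 4.67 there, against 2.51 in cortex and 2.96 in cerebellum at 1X. The 3X arrays read 3.09, 3.09 and 3.05 in liver, 2.67, 2.79 and 2.74 in cortex and 2.92, 2.87 and 2.75 in cerebellum. The 3X liver arrays lay just above all 3X brain arrays. The difference from cortex was 0.34 ± 0.08 (SE; limma adjusted p = 0.0117), and it lost its call without cortex replicate 1, at 0.31 (limma adjusted p = 0.0548). The additive fit over all 12 arrays, which brings in the 1X liver array, gave 0.80 (limma adjusted p = 0.0577). The difference from cerebellum, 0.23 ± 0.08, was not called (limma adjusted p = 0.0774).

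The 2 probe sets of Pcx disagreed. Set 93308_s_at, whose suffix marks probes shared with related transcripts, read 4.36 in liver, 2.51 in cortex and 2.61 in cerebellum at 1X. At 3X it read 3.25, 2.74 and 2.67 in liver, 2.75, 2.69 and 2.58 in cortex and 2.95, 2.64 and 2.61 in cerebellum. The tissues overlapped at 3X, and neither the difference from cortex (0.21 ± 0.15, limma adjusted p = 0.419) nor that from cerebellum (0.15 ± 0.15, adjusted p = 0.602) was called. Set 162288_f_at, whose suffix marks a family of similar sequences, read 2.02 in liver, 1.76 in cortex and 1.75 in cerebellum at 1X, and 2.71, 2.70 and 2.53 in liver at 3X. Its 3X brain signals were 2.17, 2.15 and 2.28 in cortex and 2.21, 2.16 and 2.26 in cerebellum, all below the liver arrays. Liver was higher by 0.45 ± 0.08 against cortex (limma adjusted p = 0.00367) and 0.43 ± 0.08 against cerebellum (adjusted p = 0.00473), from signals that were dim throughout. With the mean of both sets as 1 value per gene, Pcx was higher in liver than cortex by 0.33 (limma adjusted p = 0.0436), and the difference from cerebellum, 0.29, was not called (adjusted p = 0.0734).

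**Figure D1:**
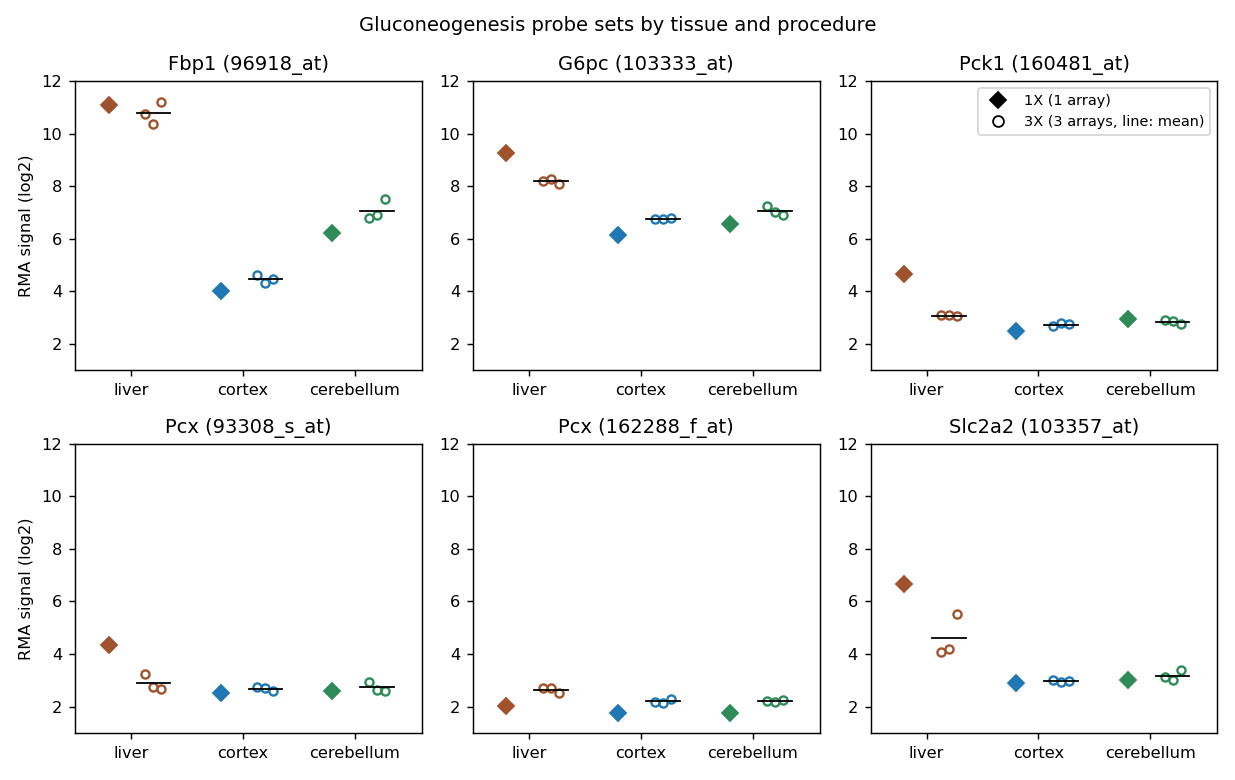
RMA signals (log2, vertical axis) of the 6 probe sets in liver, cortex and cerebellum. Filled diamonds are the single 1X arrays, open circles the 3 arrays at 3X and lines their means. Fbp1 and G6pc keep liver on top with both procedures, at 3X means of 10.77 and 8.19, while Pck1 and Pcx 93308_s_at fall from 4.67 and 4.36 on the 1X liver array to 3X means of 3.07 and 2.89, near the brain signals.

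Between the brain regions, Fbp1 was the only member called. Its 3X mean was 4.47 ± 0.15 (SD, n = 3) in cortex and 7.07 ± 0.38 in cerebellum, so that cortex was lower by -2.59 ± 0.22 (SE; limma adjusted p = 0.000313), and the 1X arrays differed by -2.18. That is 1 of 6 members, against 1.06% of all probe sets called between the regions and 0.628% called lower in cortex, with a member median of -0.15. For G6pc and Slc2a2, too, every 3X cerebellum array was above every 3X cortex array, an arrangement found in 8.56% of all probe sets. Their differences of -0.30 ± 0.10 (limma adjusted p = 0.332) and -0.19 ± 0.30 (adjusted p = 0.966) were not called. Pck1 (-0.11, limma adjusted p = 0.805) and both Pcx sets (-0.06 and -0.02, adjusted p = 0.982 and 0.994) did not separate the regions. By their 3X means all 6 thus ran from liver to cerebellum to cortex, and the share of all probe sets in that order was not computed. The last pair was separated by the test for Fbp1 alone. Its order turned for Pcx 162288_f_at after renewed quantile normalization, and Pcx 93308_s_at also changed sign among the alternatives given at the end. For Pck1 and Pcx 93308_s_at the test did not separate liver from cerebellum either.

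Some markers of kidney tubule, the other main site of gluconeogenesis, were, like Fbp1, higher in cerebellum than in cortex, and most of those measured were not called. Of 26 measured genes of 45 on a kidney list, 8 were called lower in cortex than in cerebellum and 0 higher, with a median difference of -0.20, and 7 of the 8 were among the 16 measured proximal tubule genes. The mean log2 signal of the 26 was 3.14 in cortex and 3.89 in cerebellum at 1X, 3.38 to 3.45 in cortex and 3.90 to 3.95 in cerebellum at 3X, and 3.41 in liver at 1X and 3.67 to 3.73 at 3X. The androgen-regulated kidney protein gene Kap read 4.92 in cortex and 8.66 in cerebellum at 1X, and its 3X means of 4.96 and 6.01 differed by -1.04 ± 0.11 (SE; limma adjusted p = 0.00101). Uromodulin (Umod), the tubular protein of urine, differed by -0.88 ± 0.09 (SE; limma adjusted p = 0.000639). Of the 45, 6 were already known from earlier results of these data to differ, Kap and Umod among them. Without these 6, 2 of 20 measured genes were lower in cortex, with a median of -0.15: Acsm2, a medium-chain acyl-CoA synthetase, by -0.72 ± 0.09 (limma adjusted p = 0.00187), and the fatty acid transporter Slc27a2, which liver also expresses, by -1.17 ± 0.21 (adjusted p = 0.0219). The mean log2 signal of these 20 was 3.13 in cortex, 3.48 in cerebellum and 3.31 in liver at 1X. At 3X the group means were 3.40, 3.61 and 3.64 in the same order. No signal can be called 0 on these arrays. The part of kidney RNA in the Fbp1 signal of cerebellum was not tested.

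Hepatocyte markers were compared in the same way. Of 20 measured genes of 22 on that list, 0 were called by limma between cortex and cerebellum, with a median difference of 0.03, and at an unadjusted p under 0.05 there were 1 higher and 1 lower. After renewed quantile normalization 1 gene was called higher in cortex. At 1X their mean signal was 3.79 in cortex and 3.59 in cerebellum, and 17 of the 20 read higher in cortex, the opposite side from Fbp1. That mean includes transthyretin (Ttr), also on the choroid plexus list, which read 11.57 in cortex and 9.01 in cerebellum at 1X. With a 3X difference of 1.27 ± 0.29 (SE; limma adjusted p = 0.09), Ttr was the gene higher in cortex at the unadjusted threshold. The mean signal of the 20 was 4.002 to 4.08 on the 3X cortex arrays and 3.98 to 4.02 on the 3X cerebellum arrays, against 8.47 to 9.33 in 3X liver. In liver, 18 of the 20 were called higher than in cortex and all 20 higher than in cerebellum. Choroid plexus markers gave 0 calls by limma among 5 measured genes between the regions (1, again Ttr, higher in cortex at an unadjusted p under 0.05, and called after renewed quantile normalization). Cerebellar neuron markers gave 5 of 7, all lower in cortex, led by Gabra6 (-2.33 ± 0.15, limma adjusted p = 3.19e-05), while Zic2 and Calb1 were not called. No list of cortex markers was tested. Of 7 neuron markers, 6 were called lower in liver than in cortex, and 0 were called by limma between the regions (2 higher in cortex at an unadjusted p under 0.05).

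**Figure D2:**
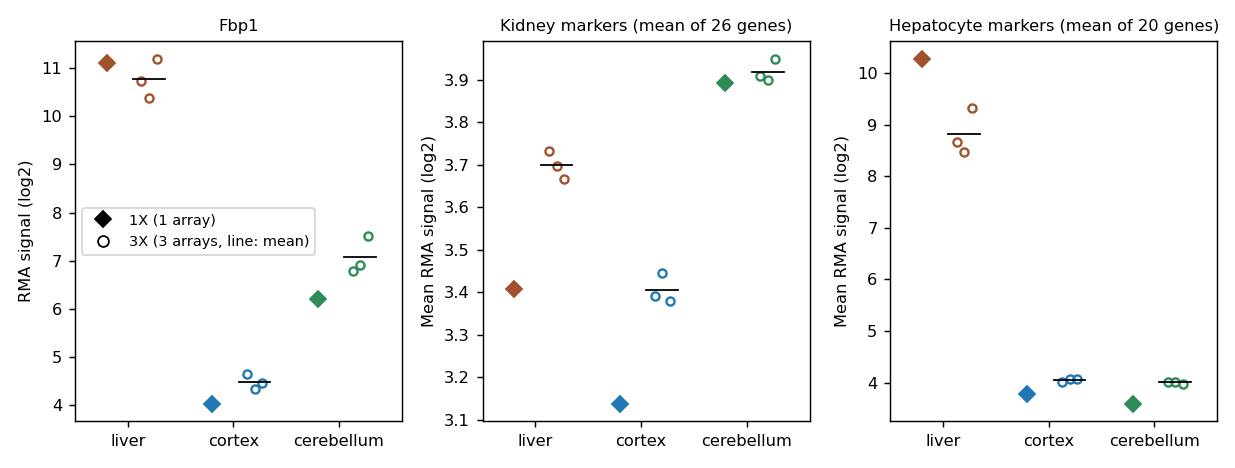
Fbp1 signal, mean signal of 26 kidney markers and mean signal of 20 hepatocyte markers (all log2, each panel with its own vertical scale, none starting at 0). Diamonds are 1X arrays, circles 3X arrays and lines 3X means. Fbp1 and the kidney markers are both higher in cerebellum than in cortex, while the hepatocyte markers are level between the regions at 3X means of 4.05 and 4.003.

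Liver differences of most members were smaller at 3X than at 1X. The liver minus cortex difference went from 3.14 at 1X to 1.43 at 3X for G6pc, from 2.16 to 0.34 for Pck1, from 1.85 to 0.21 for Pcx 93308_s_at and from 3.77 to 1.62 for Slc2a2. Fbp1 went from 7.08 to 6.30, and Pcx 162288_f_at from 0.26 to 0.45. The differences from cerebellum followed the same course, from 2.74 to 1.14 for G6pc, from 1.71 to 0.23 for Pck1, from 1.74 to 0.15 for Pcx 93308_s_at, from 3.66 to 1.42 for Slc2a2 and from 4.90 to 3.70 for Fbp1. Of the 850 probe sets whose liver minus cortex difference at 1X was at least 1, 96.7% had a smaller one at 3X, and their median went from 2.05 to 0.63. Since these were selected on single 1X arrays, a smaller second value follows in part from the selection, and nothing is read from this share.

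**Figure D3:**
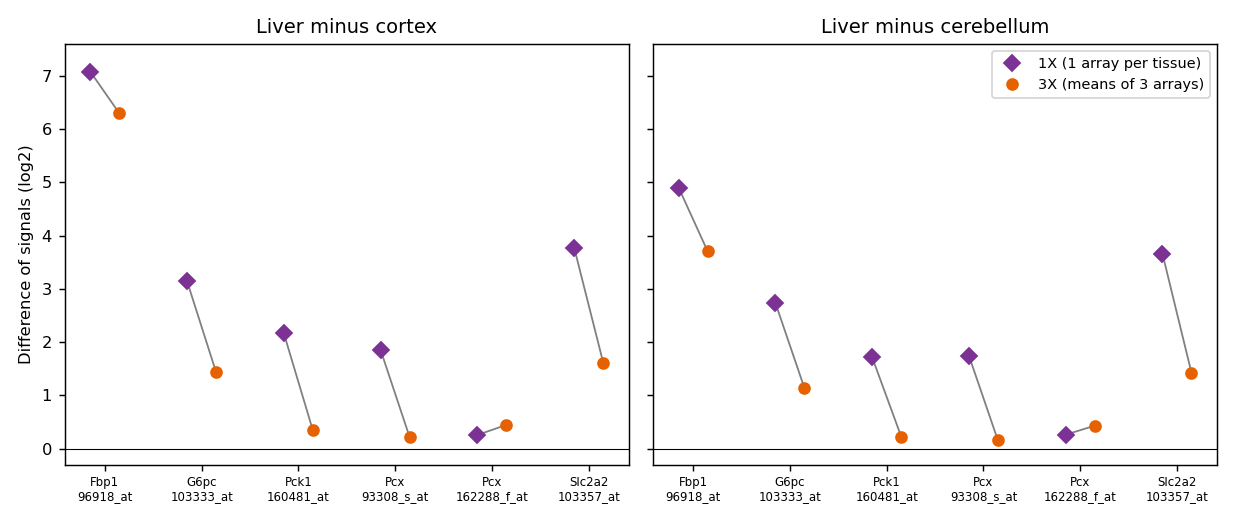
Difference of signals between liver and cortex (left) and liver and cerebellum (right), on the log2 scale, for each probe set. Diamonds are differences of single 1X arrays, circles differences of 3X means of 3 arrays, and grey lines join the same probe set. All lines slope down except that of Pcx 162288_f_at, which goes from 0.26 to 0.45 against cortex.

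The procedures were then compared within each tissue. The 3X mean of liver differed from its 1X array by -2.08 for Slc2a2, -1.60 for Pck1, -1.47 for Pcx 93308_s_at, -1.09 for G6pc and -0.34 for Fbp1. The cortex and cerebellum values were 0.08 and 0.16 for Slc2a2, 0.22 and -0.11 for Pck1, 0.17 and 0.12 for Pcx 93308_s_at, 0.62 and 0.51 for G6pc and 0.45 and 0.86 for Fbp1. The medians of all probe sets were 0.15 in liver, 0.11 in cortex and 0.14 in cerebellum. A moderated F test of whether the procedure acted differently in the 3 tissues called 3 of 6 members, against 10.4% of all probe sets. These were Pck1 (F = 78.9, limma adjusted p = 6.78e-05), G6pc (F = 46.0, adjusted p = 0.000339) and Pcx 93308_s_at (F = 18.6, adjusted p = 0.00663). Slc2a2 was not called (F = 8.77, limma adjusted p = 0.0556), but was without liver replicate 3 (F = 105, adjusted p = 6.95e-06). Fbp1 (F = 3.75, limma adjusted p = 0.308) and Pcx 162288_f_at (F = 0.785, adjusted p = 0.937) were not called. The test assumes that a lone 1X array varies as the 3X replicates do, and each rests on the single 1X liver array. With both Pcx sets averaged the call was lost (F = 8.47, limma adjusted p = 0.0537).

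Averaged over the tissues, 3X minus 1X was called for 1 of 6 members, against 56.9% of all probe sets (37.5% higher and 19.5% lower at 3X), with a member median of -0.19 beside 0.12 over all. That member was Pcx 162288_f_at, higher at 3X by 0.51 ± 0.06 (SE, 12 arrays; limma adjusted p = 0.000103) and by 0.63, 0.44 and 0.46 in liver, cortex and cerebellum. The others were -0.61 ± 0.40 for Slc2a2, -0.49 ± 0.25 for Pck1, -0.39 ± 0.26 for Pcx 93308_s_at, 0.32 ± 0.23 for Fbp1 and 0.02 ± 0.25 for G6pc, with limma adjusted p-values from 0.109 to 0.960. Single 1X arrays decided 3 of these. Without the liver 1X array, Fbp1 was called at 0.65 (limma adjusted p = 0.0279) and G6pc at 0.57 (adjusted p = 0.000564), and without the cortex 1X array Pck1 was called at -0.85 (adjusted p = 0.0183).

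The control sets of Pcx, placed by the manufacturer along the transcript, gave a further view of the same gene. The set at the 3′ end read 7.003 in liver at 1X and 5.45, 5.28 and 5.65 at 3X, against 4.52 and 4.47, 4.43 and 4.33 in cortex and 4.92 and 4.56, 4.40 and 4.68 in cerebellum. The second middle set read 5.05 in liver at 1X and 2.59, 2.87 and 2.87 at 3X, 3.27 and then 2.74, 2.74 and 2.78 in cortex, and 3.46 and then 2.89, 2.62 and 2.51 in cerebellum. Both were brightest on the 1X liver array, and only the 3′ set kept its 3X liver arrays above all brain arrays. The 5′ set read 9.15 in liver at 1X and 8.88, 8.38 and 8.60 at 3X, with brain arrays between 8.19 and 8.82. The first middle set read 5.91 in liver at 1X and 4.92, 5.00 and 4.79 at 3X, with brain arrays between 4.83 and 5.12.

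The procedures were compared by an exact permutation test in which any of the 4 arrays of a tissue could be the 1X array (64 placings, two-sided, smallest possible p 0.0156). The 3′ set was lower at 3X by a mean of -0.68 and the second middle set by -1.19 (exact permutation p = 0.0156 each), both adjusted to 0.0234 over a family of 9 control quantities by Benjamini-Hochberg. The first middle set was lower by -0.40 (exact permutation p = 0.0313, adjusted 0.0402), and the 5′ set gave -0.08 (exact permutation p = 0.688). The 3′ minus 5′ difference within an array moved by -0.60 (exact permutation p = 0.0156, adjusted 0.0234), with -1.01 in liver, -0.26 in cortex and -0.53 in cerebellum, the 1X array being above all 3X arrays of its tissue each time. For comparison, the same quantity moved by 3.08 for Actb and 1.25 for Gapdh (exact permutation p = 0.0156 each), by 0.19 for Tfrc (exact p = 0.219) and by -1.40 for 18S rRNA (exact p = 0.0156). The sign for Pcx was thus opposite to that of the mRNA controls Actb and Gapdh. Its 3′ set alone moved by -1.55 in liver, -0.11 in cortex and -0.37 in cerebellum, and its 5′ set by -0.53, 0.15 and 0.15. The 5′ set lay above at least 97.3% of probe sets on every array and did not separate the tissues at 3X. How far it follows Pcx was not tested.

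**Figure D4:**
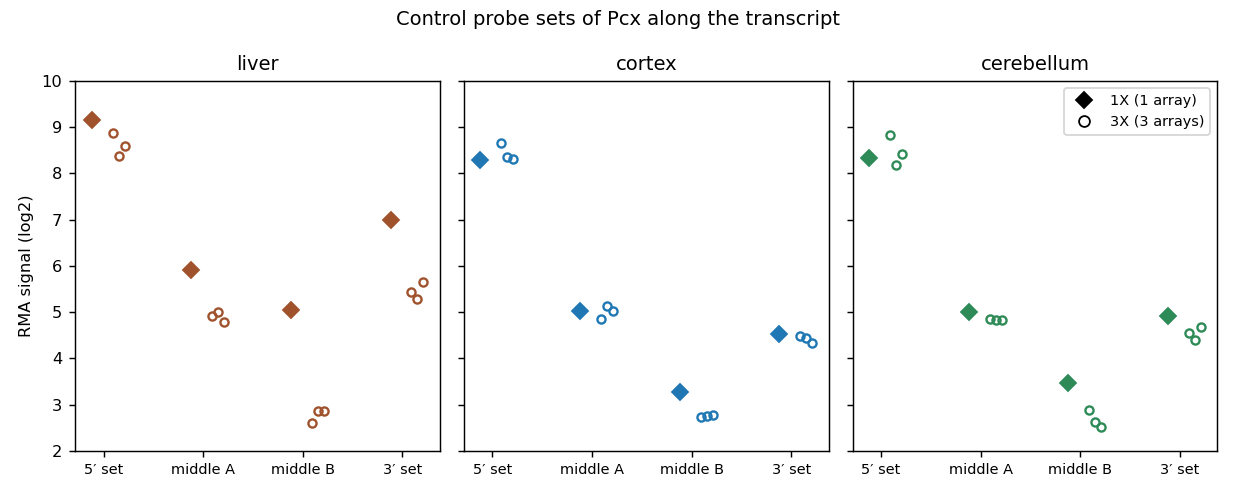
RMA signals (log2) of the 4 Pcx control sets, ordered from the 5′ to the 3′ end of the transcript, in liver, cortex and cerebellum. Diamonds are 1X arrays and circles 3X arrays. The 1X liver array exceeds its 3X arrays at every set, by most at the second middle set (5.05 against 2.59 to 2.87). Levels are not compared between sets.

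Of the enzymes that glycolysis and gluconeogenesis use in common, 8 of 12 listed were measured, 5 of these were called lower in liver than in cortex and 0 higher by limma (median -1.34; 6 lower and 0 higher at an unadjusted p under 0.05), and against cerebellum 4 were lower (5 after renewed quantile normalization, which called 4 against cortex). They were led by the aldolase Aldoa (-2.89 ± 0.09 SE; limma adjusted p = 4.86e-09), the brain aldolase Aldoc (-2.32 ± 0.09), the phosphoglycerate mutase Pgam1 (-1.997 ± 0.16) and the neuronal enolase Eno2 (-1.91 ± 0.19). Aldoc was the only one called between the regions, lower in cortex by -0.78 ± 0.09 (limma adjusted p = 0.0013). Of 16 measured genes of substrate entry and shuttles (25 listed), 4 were higher and 3 lower in liver against each region, with medians of -0.01 and 0.03. Tyrosine aminotransferase (Tat), which feeds amino acid carbon into the path, was higher than in cortex by 2.27 ± 0.22 (limma adjusted p = 3.96e-05) and the citrate carrier Slc25a1 by 1.21 ± 0.19 (adjusted p = 0.00114). The mitochondrial enzymes Gpd2 and Mdh2 were lower, by -2.26 ± 0.17 and -1.24 ± 0.21 (limma adjusted p = 6.25e-06 and 0.00209).

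Of 21 measured genes of the glucose 6-phosphate system, glycogen and the opposing glycolytic steps (28 listed), 4 were higher and 3 lower in liver than in cortex, with a median of 0.00. Against cerebellum 2 were higher and 2 lower. Slc37a4, the carrier that brings glucose 6-phosphate to G6pc in the endoplasmic reticulum, read 7.35 in liver at 1X and 5.81, 5.47 and 6.25 at 3X. It was higher than in cortex by 0.87 ± 0.16 (SE; limma adjusted p = 0.00324), and the phosphoglucomutase Pgm1 by 0.63 ± 0.15 (adjusted p = 0.0132). The muscle and brain pyruvate kinase Pkm, which opposes Pcx and Pck1, was lower by -0.71 ± 0.11 (limma adjusted p = 0.000971), and the phosphofructokinase Pfkp, which opposes Fbp1, by -0.59 ± 0.16 (adjusted p = 0.0321).

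Of 20 measured hormone and transcriptional regulators (26 listed), 5 were called higher in liver than in cortex and 0 lower by limma (median 0.16), and the counts were the same against cerebellum (median 0.07). At an unadjusted p under 0.05, 8 were higher and 2 lower against cortex and 6 and 2 against cerebellum, and renewed quantile normalization called 6 higher against cortex. The fasting-response receptor Ppara was higher than in cortex by 0.88 ± 0.15 (SE; limma adjusted p = 0.00206), the factor Cebpa by 0.86 ± 0.10 (adjusted p = 0.000104) and the glucagon receptor Gcgr by 0.85 ± 0.17 (adjusted p = 0.00668). Onecut1, a liver homeodomain factor, was higher by 0.32 ± 0.08 (limma adjusted p = 0.0165). Hnf4a, a master regulator of hepatocyte genes, read 3.45 in liver and 2.26 in cortex at 1X, and its 3X difference of 0.07 ± 0.09 was not called (limma adjusted p = 0.67). Of 4 measured biotin-dependent carboxylases and biotin genes (9 listed), relatives of Pcx, 2 were higher in liver than in cortex (median 0.22): Mccc1 by 0.45 ± 0.08 (limma adjusted p = 0.00408) and Pccb by 0.31 ± 0.10 (adjusted p = 0.0494), a call lost after median centring. Only Mccc1 was higher than in cerebellum, by 0.28 (limma adjusted p = 0.0446). Hnf4a was named after its values were seen.

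Of the 6 measured glucose transporters other than Slc2a2 (8 listed), 0 were called by limma between liver and cortex (median -0.06, with 1 lower in liver at an unadjusted p under 0.05) and 1, Slc2a8, was lower in liver than in cerebellum (-0.36, limma adjusted p = 0.0152). Paralogs of the members were looked at beside them. The muscle bisphosphatase Fbp2, the glucose-6-phosphatases G6pc2 and G6pc3, the mitochondrial carboxykinase Pck2 and the transporters Slc2a1, Slc2a3 and Slc2a4 were measured by 10 probe sets. At 3X, 0 of these were called by limma between liver and either region, and 0 had an unadjusted p under 0.05, with differences from -0.16 to 0.13. The blood-brain barrier and astrocyte transporter Slc2a1, for example, read 9.18 in liver, 9.63 in cortex and 9.73 in cerebellum at 1X, and its 3X difference from cortex was -0.07 ± 0.09 (limma adjusted p = 0.679). The single 1X arrays were further apart for others: 1 of the Slc2a3 sets, for the neuronal transporter, read 2.74 in liver and 4.07 in cortex, and G6pc3 read 3.99 in liver and 5.03 in cerebellum. Both were called for tissue dependence of the procedure (limma adjusted p = 0.00626 and 0.0237).

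The probe sets most like each member over the 12 arrays were found among 1856 that carried other single symbols and had an SD of at least 0.5. Pearson's r over arrays, which share tissue and animal, is a description here. Fbp1 was matched by the fatty acid transporter Slc27a2 (r = 0.987), the kininogen Kng1 (0.987) and the organic cation carrier Slc22a18 (0.979). All of these had 3X cerebellum means above their cortex means: 2.46 and 1.29 for Slc27a2, 4.87 and 3.41 for Kng1, and 7.01 and 5.95 for Slc22a18. Since the genes were picked by r over these same arrays, an order shared with Fbp1 follows from the selection. G6pc was matched by the oxysterol receptor Nr1h3 (0.991), the apolipoprotein Apoa4 (0.982) and the deacetylase Aadac (0.973). Pck1 was matched by 4931406C07Rik (0.982), the phospholipid enzyme Pcyt2 (0.981) and the sulfate-donor synthase Papss2 (0.981). Pcx 93308_s_at was matched by the transferrin receptor Tfr2 (0.973), the plasma glycoprotein Lrg1 (0.965) and Igf1 (0.964), and Slc2a2 by 1300017J02Rik (0.996), the protease inhibitor Tfpi2 (0.992) and the glutathione transferase Gstk1 (0.989). As with 5 of the 6 member probe sets, the 1X liver array was the brightest group for each of these except Kng1, whose liver signal was 8.25 at 1X and 8.37 at 3X. This likeness, too, follows from the selection.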

How the data were processed

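Total RNA of liver, cortex and cerebellum of 1 mouse was measured on 12 arrays. The deposited log2 signals were made by the authors with RMA, per the submitters' processing notes. Its version and log base, and whether 1 run covered all arrays, are not given in the sources used. Base 2 follows from the maximum of 14.46, which no natural logarithm of a 16-bit scan can reach (11.09). Precision is limited by how many arrays there are. No pair of arrays held identical values.

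Of 12488 probe sets, 66 manufacturer controls were kept out, and 12422 were tested two-sided with limma (version 3.58.1, R 4.3.3; lmFit, contrasts.fit and eBayes), and p-values were adjusted over all of them by Benjamini-Hochberg. Calls are at adjusted p under 0.05. Tissues were compared in a fit of the 9 3X arrays, procedures over all 12 with tissue as a further term, and tissue dependence by a moderated F test over 6 group means. Control sets were tested by exact permutation. The procedure was tested on simulated arrays with independent normal noise, the same spread at 1X as at 3X, and 50 probe sets changed at each size. There, 94% of differences of 1 on the log2 scale were recovered between liver and cortex, and 44% of such differences in the test of tissue dependence. The spread at 1X is unknown here, so these shares hold for the simulated setting only.

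All member probe sets are reported. Pathway genes were counted at the probe set with the highest mean, and up to 4 per list were named by the size of their difference among those called. Other marker lists gave, between cortex and cerebellum, 1 call of 7 astrocyte genes (Aldoc), 1 of 6 skeletal muscle genes (Pvalb, also a marker of Purkinje cells and interneurons) and 0 of 6 enterocyte, 5 adipocyte and 4 pancreas genes (limma; at an unadjusted p under 0.05, 0, 2 and 0). Members and lists were chosen with earlier results of these data known. Alternatives were renormalization, median centring, filters, other eBayes settings, the replicate number as a block, fits of fewer or more arrays, leaving out each array, and a mean per gene. Replicate numbers were not used as pairs in the main fits, and whether they pair the 3X arrays is not settled. Deviations of same-numbered arrays correlated at -0.10 to 0.34 in 9 pairs. Arrays numbered 3 gave 0.34 (liver and cortex), 0.29 (liver and cerebellum) and 0.30 (cortex and cerebellum). Arrays of unlike numbers gave -0.36 to 0.25. Promoter sequences are RefSeq's, GRCm38.p6.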

Additional observations from a re-analysis of the deposited data

Results flagged for a closer look

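The effect of the procedure differed between the tissues for 3 of the 6 probe sets by the moderated F test of the interaction. For Pck1 the F was 78.9, with 3X minus 1X at -1.60 in liver, 0.22 in cortex and -0.11 in cerebellum. For G6pc the F was 46.0, with -1.09, 0.62 and 0.51. For Pcx 93308_s_at the F was 18.6, with -1.47, 0.17 and 0.12. In each case the liver array made with the standard protocol lay above all 3 liver arrays made with 3 linear amplifications. It has no replicate here.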

How the results depend on the processing

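Of 503 values of single members under the alternatives, 474 kept their direction and their side of the threshold. Limiting the fit to probe sets above the median level, which tests fewer of them and drops the Pck1 and Pcx sets, gave 1347 calls between liver and cortex, 1341 between liver and cerebellum, 3685 for 3X minus 1X and 804 for tissue dependence. With the spread from the 2 regions compared, cortex and cerebellum gave 262 calls, and leaving out single arrays gave 82 (without cerebellum replicate 2) to 250 (without liver replicate 3) against 132. With tissues as units, 3X minus 1X gave 4690. Slc2a2 was called for tissue dependence among probe sets above the median level (F = 8.66), without a suffix (9.21) and at 1 mean per gene (8.85). Renewed quantile normalization called Fbp1 for 3X minus 1X at 0.60 (limma adjusted p = 0.0134). A change of sign was seen only for members not called. For 3X minus 1X, leaving out single arrays gave -0.29 (without cortex 1X) to 0.57 (without liver 1X) for G6pc, below 0 also without cerebellum 1X (-0.23), cortex 3X replicates 1, 2 and 3 (-0.0034, -0.0071 and -0.010) and cerebellum 3X replicate 1 (-0.031). The ranges were -0.85 to 0.057 for Pck1, -0.67 to 0.14 for Pcx 93308_s_at and -0.998 to 0.12 for Slc2a2, each highest without liver 1X, and the Pcx mean per gene gave 0.057. Between the regions, Pcx 162288_f_at ranged from -0.056 to 0.011 (0.00033 after quantile normalization) and Pcx 93308_s_at from -0.12 to 0.048. Against cerebellum, Pcx 93308_s_at ranged from -0.029 (without liver replicate 1) to 0.26. The causes were not tested. The 3′ minus 5′ difference of Pcx ranged from -0.55 to -0.64 without single 3X arrays (exact permutation p = 0.0208 each, the smallest those placings allow). The replicate block gave 2277, 2225 and 170 calls and changed no member's call. A 1X array could not be left out of the test of tissue dependence. Dim signals without a detection call limit Pck1, Pcx and the brain values of Slc2a2.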
